A study of Mus musculus with 4 samples.

Results

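The genes described here encode the subunits of the hypoxia-inducible factors (HIFs) and the proteins that read oxygen for them. They are Hif1a, Epas1, Hif3a, Arnt, Arnt2, Vhl, Egln1, Egln2, Egln3 and Hif1an. All 10 were found by symbol in the platform annotation, each with 1 probe set, among 19938 genes with a probe set of a single symbol. RNA came from bone marrow cells of C57BL/6 mice aged 8 weeks, sorted for c-Kit and Sca-1 and against lineage markers (LSK cells) and labelled haematopoietic stem cells. There were 2 arrays from wild-type (WT) mice and 2 from mice labelled Hif1a-/- (the Hif1a-/- arrays), numbered 1 and 2 in each genotype and described as biological replicates. The labels used here give neither the deleted exons, nor a Cre or promoter that drives the deletion, nor how many mice were pooled for an array. Stem cells and multipotent progenitors both fall in the LSK gate.

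A HIF is a pair of an oxygen-regulated alpha subunit and a stable beta subunit, and it turns on genes of glycolysis, angiogenesis and iron handling. When oxygen is present, prolyl hydroxylases mark the alpha subunit, the VHL protein binds the mark, and the VHL ubiquitin ligase sends the subunit for destruction. A separate asparaginyl hydroxylase blocks the binding of coactivators. This control acts largely on protein, so RNA levels of these genes do not report the amount of active HIF. Stem cells of the marrow are commonly described as living at low oxygen, and Hif1a has been studied there for its part in their metabolism and quiescence.

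The promoters of Egln3, Egln1 and Hif1a are shown because Egln3 and Egln1 are known as HIF-inducible feedback genes and Hif1a is the gene named in the genotype. Each sequence runs from 250 bases before to 50 after a RefSeq transcription start (GRCm38.p6), 5′ to 3′ on the strand of the gene. Capitals mark the core of the HIF response element, searched as ACGTG and GCGTG on both strands, which in the printed strand also appears as CACGT and CACGC. The regions are chr12:54203825-54204124 on the minus strand for Egln3, chr8:124949205-124949504 on the minus strand for Egln1 and chr12:73907617-73907916 on the plus strand for Hif1a.
Egln3: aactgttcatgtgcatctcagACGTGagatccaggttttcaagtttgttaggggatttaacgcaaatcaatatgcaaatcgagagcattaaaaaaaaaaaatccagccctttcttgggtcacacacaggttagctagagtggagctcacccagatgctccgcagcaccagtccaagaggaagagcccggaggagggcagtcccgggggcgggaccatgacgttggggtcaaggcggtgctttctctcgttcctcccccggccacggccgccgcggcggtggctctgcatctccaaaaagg
Egln1: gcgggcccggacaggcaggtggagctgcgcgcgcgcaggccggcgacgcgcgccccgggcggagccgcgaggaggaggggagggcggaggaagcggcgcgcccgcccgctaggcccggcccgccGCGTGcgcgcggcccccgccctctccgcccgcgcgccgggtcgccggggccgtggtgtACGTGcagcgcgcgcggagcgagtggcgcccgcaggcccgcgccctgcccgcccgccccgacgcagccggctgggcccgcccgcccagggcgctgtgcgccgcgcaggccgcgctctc
Hif1a: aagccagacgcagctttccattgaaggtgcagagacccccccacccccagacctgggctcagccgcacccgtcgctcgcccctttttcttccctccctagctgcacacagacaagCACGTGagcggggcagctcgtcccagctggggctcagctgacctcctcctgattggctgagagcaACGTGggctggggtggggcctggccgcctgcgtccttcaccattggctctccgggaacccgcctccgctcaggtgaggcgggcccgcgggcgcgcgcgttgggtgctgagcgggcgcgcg
The Egln3 window held 1 match, 229 bases before the start. The Egln1 window held 2, at 126 and 68 bases before the start. The Hif1a window held 3, of which the ones at 135 and 134 bases lie on opposite strands and overlap, and the third is at 70 bases. Promoters were found for 9 of the 10 genes (all but Epas1), Egln2 with 2 starts, and 7 of these 10 windows held a match (70.0%). Among all 32851 promoter windows of this length 43.8% held one. The median GC content was 63.2% in the 10 windows and 52.7% in all. Vhl, Arnt2 and Hif1an had no match in the window. A match describes letters only, and a motif outside the window was not looked for. In human EGLN3 a response element is known in the first intron, which this window does not cover.

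The arrays numbered 2 stood apart from those numbered 1 in both genotypes, so genotype differences are also given within each number. Across 19938 genes the same-number arrays correlated at 0.995 (number 1) and 0.983 (number 2), against 0.966 between the WT arrays and 0.962 between the Hif1a-/- arrays. These coefficients only describe the arrays, since genes are not independent replicates. The interquartile range over all probe sets was 2.61 and 2.60 in the number 1 arrays (WT, then Hif1a-/-) and 2.78 and 2.49 in the number 2 arrays. Genotype differences within number 2 thus compare the array of widest spread with that of narrowest spread. The part of this spread in the differences was not tested. Kit, which encodes c-Kit of the sorting gate, had log2 signals of 12.57 and 12.37 in the number 1 arrays (WT, then Hif1a-/-) and 11.51 and 11.32 in the number 2 arrays. Ly6a, which encodes Sca-1, was not analysed here. The summed linear signal of 11 measured stem and progenitor markers was 37043 and 33379 in the number 1 arrays, and 17680 and 12669 in the number 2 arrays. The summed signal of 12 neutrophil granule markers was 38964 and 32344 in number 1, and 74113 and 94255 in number 2. All 12 were higher in the mean of number 2, and 8 passed limma's test between the numbers, which 6.74% of all genes passed. In a fit with 1 array left out, a lone array stands for its number, so such fits cannot test these calls. Mast cell and basophil markers (10 genes) gave sums of 5391 and 7139 in number 1 against 19419 and 21482 in number 2. In bulk samples, a change in the share of cells of a type and a change in RNA per cell cannot be told apart. Of the 11 stem and progenitor markers, 10 were lower in the mean of number 2, and 6 passed limma's test between the numbers. The other, Slamf1, was higher by 0.15. The purity of the sorted cells was not tested. Between the genotypes, 9 of 11 B cell markers had a higher mean in the Hif1a-/- arrays, with a median of 0.92 log2 units over the 11 (1.12 in number 1, 0.81 in number 2). The other 2 were Ighm (−1.41), an immunoglobulin heavy chain gene, and Jchain (−1.45), which joins immunoglobulin polymers. Of the 11, 0 passed limma's adjusted test and 8 had an unadjusted p under 0.05, beside 0.727% of all genes. The 8 include Ighm and Jchain, so they do not share a direction. The list was chosen with earlier results of these data known, so this share is a description.

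**Figure D1:**
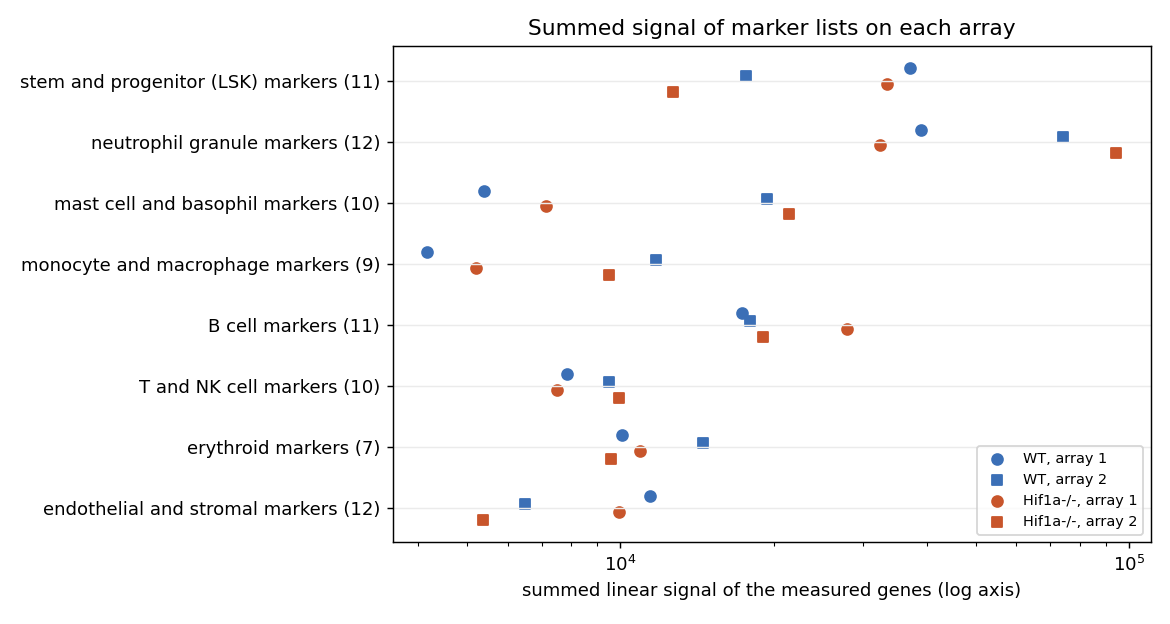
Summed linear signal (log axis) of each marker list, with the number of measured genes in brackets; circles are arrays numbered 1, squares arrays numbered 2, blue WT and orange Hif1a-/-. The squares lie left of the circles for stem and progenitor markers (12669 and 17680 against 33379 and 37043) and right of them for neutrophil granule, mast cell and monocyte markers.

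No difference in Hif1a, which encodes the alpha subunit of HIF-1, was detected between the genotypes. Its log2 signal was 10.37 in WT array 1, 10.99 in WT array 2, 10.58 in Hif1a-/- array 1 and 10.64 in Hif1a-/- array 2, and later pairs of values are in the same order. Both Hif1a-/- arrays thus lay between the WT arrays. The means were 10.68 ± 0.44 (SD, n = 2) and 10.61 ± 0.04 (SD, n = 2). In limma the genotypes differed by −0.08 log2 units, with SE 0.24, a 95% interval from −0.75 to 0.60, an unadjusted p of 0.771 and an adjusted p of 0.9998. Within number 1 it was 0.20 and within number 2 it was −0.36. Omitting WT array 2 gave 0.23, and cyclic loess gave 0.012. A whole-transcript probe set averages probes along the whole gene, and the deleted exons are not given in the labels. The signal therefore neither checks nor contradicts the genotype label, and directions between genotypes follow the labels.

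The other alpha subunit genes had dimmer signals. Epas1, which encodes HIF-2α and is known from endothelial and other cells, had log2 signals of 7.94 and 7.96 in WT and 7.92 and 8.33 in Hif1a-/-. Only Hif1a-/- array 2 differed from the rest, and the mean difference was 0.17 (SE 0.18, 95% interval −0.32 to 0.67). Within number 1 the difference was −0.02, and within number 2 it was 0.37. The 12 endothelial and stromal markers summed to 11454 and 6503 in WT and to 9946 and 5370 in the Hif1a-/- arrays. A linear sum follows its brightest members. In the mean of number 2, 7 of the 12 were higher than in number 1 (Cdh5 by 0.71 log2 units) and 5 were lower (Eng by −1.52). Of these 12 markers, 2 were highest in Hif1a-/- array 2 (Kdr at 8.04 and Col1a1 at 9.42) and 4 were lowest there. Their part in the Epas1 value was not tested. Hif3a, whose splice forms include inhibitors of other HIFs, had signals of 8.40 and 8.15 in WT and 8.34 and 7.93 in Hif1a-/-. Its difference was −0.14 (SE 0.20, 95% interval −0.69 to 0.41), with −0.07 and −0.22 within numbers 1 and 2.

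As a reference for dim probe sets, 1027 olfactory receptor genes, a family not expected to be active in marrow, had a median log2 signal of 6.24. Their 95th percentile was 7.92 and their 99th was 8.65. The means over all 4 arrays for Epas1 (8.04), Hif3a (8.21) and Arnt2 (8.61) lay between these percentiles. The other 7 genes lay above the 99th. Probe sets differ in how well they bind, so this is not a test of whether a gene is expressed.

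The beta subunit gene Arnt was the steadiest of the 10. Arnt, the common partner of the alpha subunits, had log2 signals of 10.56 and 10.57 in WT and 10.48 and 10.50 in Hif1a-/-. The highest and lowest arrays were 0.09 apart, where the median range of all genes was 0.34. Both Hif1a-/- arrays were below both WT arrays, by −0.07 in the mean (SE 0.11, 95% interval −0.37 to 0.22), but the groups overlapped under quantile normalization, and under cyclic loess the mean difference was 0.011. Within numbers 1 and 2 the differences were −0.08 and −0.07. Arnt2, a related partner best known from neurons, had signals of 8.58 and 8.60 in WT and 8.50 and 8.75 in Hif1a-/-. Its genotypes overlapped, with a difference of 0.03 (SE 0.14) that was −0.027 under quantile normalization and −0.0047 under cyclic loess. Within number 1 it was −0.08 and within number 2 it was 0.14.

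Vhl, which encodes the part of the ubiquitin ligase that recognises hydroxylated alpha subunits, was higher on the number 2 array in both genotypes. Its log2 signal was 9.40 and 9.69 in WT and 9.36 and 9.78 in Hif1a-/-. The number 2 array exceeded the number 1 array by 0.29 in WT and by 0.42 in Hif1a-/-. The genotype difference was 0.03 (SE 0.21, 95% interval −0.55 to 0.61), with −0.03 and 0.09 within the numbers.

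**Figure D2:**
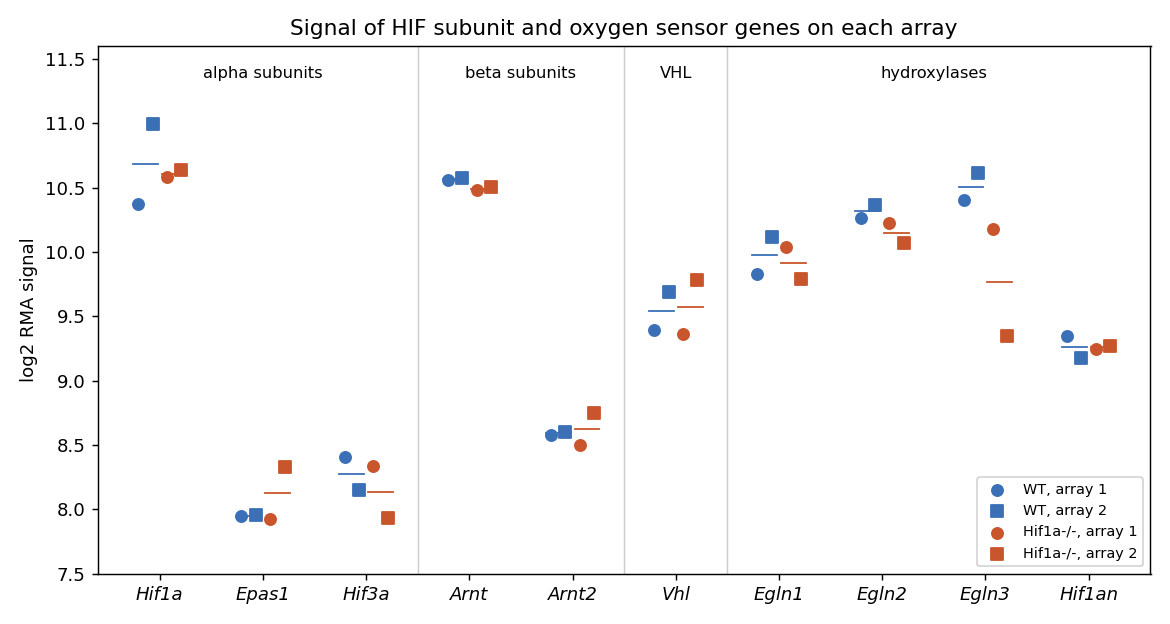
Log2 RMA signal of each gene on each array; circles are arrays numbered 1, squares arrays numbered 2, blue WT and orange Hif1a-/-, and short lines are means of 2 arrays. Egln3 has the widest spread of the 10, from 9.35 in Hif1a-/- array 2 to 10.61 in WT array 2, and Arnt the narrowest.

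Among the hydroxylase genes, Egln3 had the largest difference between the genotypes, and it did not pass the test. Egln3 encodes the prolyl hydroxylase PHD3. Its log2 signal was 10.40 in WT array 1, 10.61 in WT array 2, 10.18 in Hif1a-/- array 1 and 9.35 in Hif1a-/- array 2. Both Hif1a-/- arrays were below both WT arrays, and Hif1a-/- array 2 was far below the other 3. The means were 10.51 ± 0.15 (SD, n = 2) and 9.77 ± 0.59 (SD, n = 2). The difference was −0.74 (SE 0.32, 95% interval −1.64 to 0.15), a signal lower by 1.67-fold, with an unadjusted p of 0.0824 and an adjusted p of 0.9998 in limma. In absolute size it exceeded the genotype difference of 99.6% of all genes. It was −0.22 within number 1 and −1.26 within number 2. Leaving out 1 array at a time gave −0.85 without WT array 1, −0.64 without WT array 2, −1.16 without Hif1a-/- array 1 and −0.33 without Hif1a-/- array 2. Array 2 labelled Hif1a-/- also had the lowest summed signal of stem and progenitor markers (12669) and the highest of neutrophil granule markers (94255). The part of these cell markers in the Egln3 difference was not tested.

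The other hydroxylase genes differed by less. Egln1 encodes PHD2, the main oxygen sensor of most cells. Its signals were 9.83 and 10.12 in WT and 10.04 and 9.79 in Hif1a-/-, so the genotypes overlapped. Its difference was −0.06 (SE 0.17, 95% interval −0.54 to 0.41), made of 0.21 in number 1 and −0.33 in number 2, and it was 0.0052 under cyclic loess. Egln2, which encodes PHD1, had signals of 10.26 and 10.36 in WT and 10.23 and 10.07 in Hif1a-/-. Both Hif1a-/- arrays lay below both WT arrays, by −0.17 in the mean (SE 0.12, 95% interval −0.51 to 0.18), with −0.04 in number 1 and −0.30 in number 2. Omitting Hif1a-/- array 2 brought the difference to −0.089. Hif1an encodes FIH, the asparaginyl hydroxylase. Its signals were 9.35 and 9.17 in WT and 9.24 and 9.27 in Hif1a-/-, and its difference was −0.0015 (SE 0.12, 95% interval −0.34 to 0.34), with 0.0046 under quantile normalization and 0.020 under cyclic loess. Within numbers 1 and 2 it was −0.10 and 0.10.

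Of the 10 genes, 0 passed limma's test between the genotypes at an adjusted p under 0.05, where 0 of all 19938 genes passed (0%). At an unadjusted p under 0.05 there were 0 of the 10 and 145 of all genes (0.727%). The genotype fit has no term for the array number, so the split between the numbers adds to its SEs. A lack of calls therefore does not show that the genotypes are alike. The median difference was −0.07 in the 10 genes and 0.0027 in all genes, and the median absolute difference was 0.08 against 0.10. In the mean 7 were lower and 3 higher in the Hif1a-/- arrays. Under cyclic loess 4 were lower and 6 higher. Arnt, Egln2 and Egln3, 3 of the 10, had both Hif1a-/- arrays below both WT arrays, as did 8.33% of all genes, and 0 had both above, as did 16.1%. After quantile normalization the 3 became 2 (Egln2 and Egln3), and the share of all genes below was 15.0% and above 7.06%. The difference had the same sign within both numbers for 4 of the 10 (Hif3a, Arnt, Egln2 and Egln3), beside 48.4% of all genes. It was larger in absolute size within number 2 than within number 1 for 8 of the 10, and for 69.6% of all genes. The number 2 arrays also differed more in spread than the number 1 arrays, and the part of this was not tested.

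**Figure D3:**
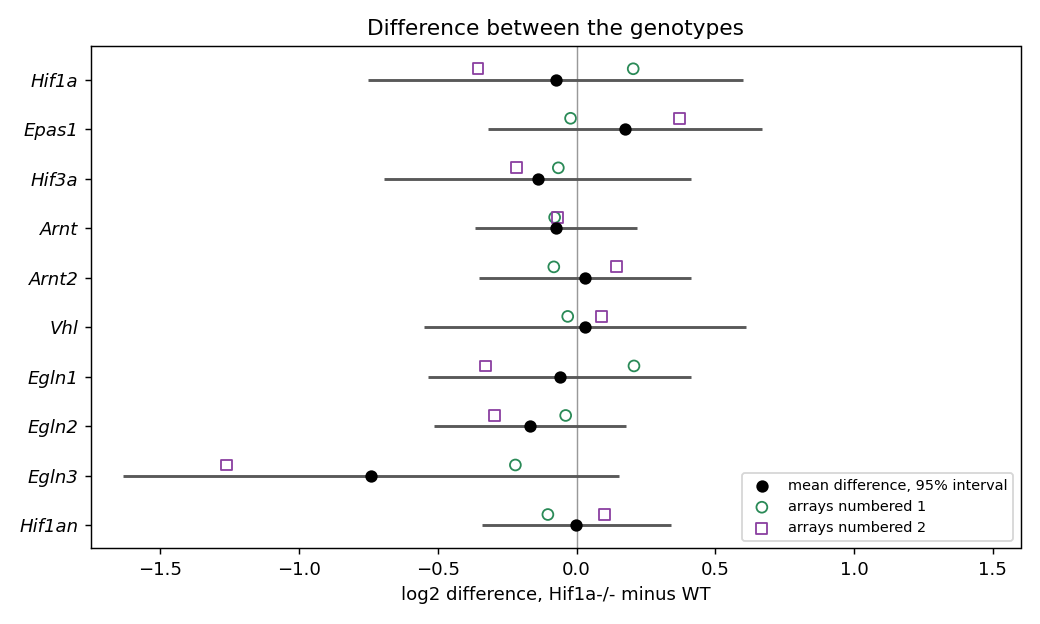
Log2 difference, Hif1a-/- minus WT, for each gene; black points are mean differences with limma's 95% intervals over 4 arrays, open circles the difference between the arrays numbered 1 and open squares between those numbered 2. All 10 intervals include 0, and the Egln3 square at −1.26 is the farthest from 0.

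Between the array numbers, 0 of the 10 genes passed limma's test, where 1344 of all 19938 genes passed (6.74%). The count over all genes was 319 without WT array 1, 458 without Hif1a-/- array 1, 4661 without WT array 2 and 4602 without Hif1a-/- array 2. Vhl was 0.36 log2 units higher in number 2 (SE 0.11, 95% interval 0.08 to 0.63, unadjusted p = 0.0195, adjusted p = 0.144). Hif3a differed by −0.33 (SE 0.13, unadjusted p = 0.0418, adjusted p = 0.229), with −0.25 between the WT arrays and −0.40 between the Hif1a-/- arrays. These were the 2 of the 10 with an unadjusted p under 0.05, a share of 20.0% beside 19.5% of all genes. Hif1a was 0.34 higher in the number 2 arrays (SE 0.16, adjusted p = 0.349), with 0.62 in WT and 0.06 in Hif1a-/-, and 0.16 without WT array 2. Without WT array 2, number 2 was Hif1a-/- array 2 alone. The differences were then 0.40 for Vhl, 0.39 for Epas1, −0.44 for Hif3a and −0.94 for Egln3. Without Hif1a-/- array 2, number 2 was WT array 2 alone, and Hif1a differed by 0.51, Epas1 by 0.022 and Egln3 by 0.32. In each fit with an array left out, a lone array stands for its number and is assumed to vary like the others. Counts and p-values from such fits do not measure the spread within that number. Both number 2 arrays lay above both number 1 arrays for Hif1a, Epas1, Arnt2 and Vhl, as for 20.4% of all genes, and below them for Hif3a, as for 27.2%. The sign of the number difference was the same in both genotypes for 6 of the 10, beside 59.3% of all genes. The 4 with opposite signs, given as values with no test, were the hydroxylase genes. Egln1 differed by 0.29 in WT and −0.25 in Hif1a-/-, Egln2 by 0.10 and −0.16, Egln3 by 0.21 and −0.83, and Hif1an by −0.17 and 0.030.

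**Figure D4:**
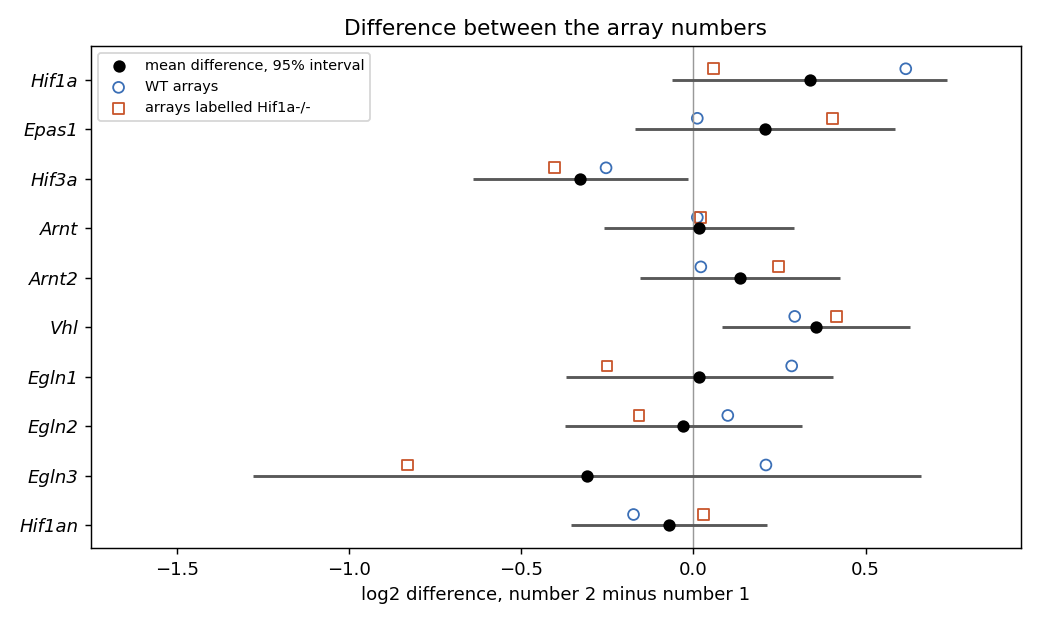
Log2 difference, array number 2 minus number 1, for each gene; black points are mean differences with limma's 95% intervals over 4 arrays, open circles the difference between the WT arrays and open squares between the Hif1a-/- arrays. The intervals of Vhl (0.08 to 0.63) and Hif3a (−0.64 to −0.02) do not include 0.

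Other genes of the pathway also gave 0 calls between the genotypes in limma, with 0 members of any of these lists at an unadjusted p under 0.05. Of 8 measured partners of VHL in its ubiquitin ligase (the elongins, Cul2, Rbx1 and enzymes of ubiquitin and NEDD8 transfer), 6 were lower in the mean, with a median of −0.05. All 8 were lower within number 2 (median −0.33) and 0 within number 1 (0.15), and the median was 0.017 under quantile normalization. The part of the unequal spread of the number 2 arrays in this was not tested. Of 11 coactivators and their inhibitors, 8 were lower, with a median of −0.06 (within numbers 1 and 2, −0.07 and −0.11). Cited2, which competes with HIF for the coactivators CBP and p300, had log2 signals of 11.98 and 11.92 in WT and 11.56 and 11.81 in Hif1a-/-. Its difference was −0.27 (SE 0.14), and the genotypes overlapped after quantile normalization. Among 15 other regulators of alpha subunit turnover 10 were lower, with a median of −0.03 (within numbers 1 and 2, 0.04 and −0.04; 0.012 under cyclic loess). Mdm2, a ubiquitin ligase gene of the p53 pathway, was at 0.28 (SE 0.20) and Os9, a gene of protein quality control in the endoplasmic reticulum, at −0.22 (SE 0.12).

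Genes related to the subunits and sensors by family were measured as well. Of 9 other bHLH-PAS genes, the family of HIF subunits, 6 were higher, with a median of 0.06 (within numbers 1 and 2, 0.06 and 0.13; −0.0084 under quantile normalization). The neuronal factor genes Npas3 and Sim2 differed by 0.28 (SE 0.17) and −0.20 (SE 0.12). Both had mean signals under 7.92, the 95th percentile of olfactory receptor genes, and the Npas3 difference was 0.16, with overlapping groups, under quantile normalization. Ahr, the receptor for dioxin and related ligands, which also pairs with Arnt, rose by 1.06 between array numbers 1 and 2 (SE 0.11, adjusted p = 0.00772 in limma). Its log2 signals were 8.97 and 9.02 in number 1 and 10.10 and 9.99 in number 2. With 1 array left out the Ahr difference ran from 1.00 to 1.11. In such fits a lone array stands for its number, so they cannot test whether a call holds. Of 21 other oxygen-using dioxygenase genes, 12 were lower between the genotypes, with a median of −0.03 (within numbers 1 and 2, −0.09 and 0.07; 0.0048 under cyclic loess). Plod2, a collagen lysyl hydroxylase gene, differed by −0.34 (SE 0.22) and the histone demethylase gene Kdm6a by 0.07 (SE 0.11). The Plod2 signals were under 7.92 on all arrays. Tet1, which encodes an enzyme that oxidises methylated DNA, fell by 2.07 between numbers 1 and 2 (SE 0.14, adjusted p = 0.00326 in limma). The Tet1 difference ran from −2.19 to −1.95 with 1 array left out. Its log2 signals were 11.64 and 11.39 in the number 1 arrays and 9.52 and 9.38 in the number 2 arrays. Plod1, another collagen lysyl hydroxylase gene, rose by 0.54 (SE 0.11, adjusted p = 0.0470). The Plod1 difference ran from 0.50 to 0.59 with 1 array left out.

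Genes known as targets of HIF gave a median difference of −0.17 over 27 measured members, 2 of which, Egln1 and Egln3, belong to the 10. Of the 27, 19 were lower in the Hif1a-/- arrays and 8 higher. The median was −0.04 within number 1 and −0.26 within number 2, and −0.15 and −0.11 under quantile normalization and cyclic loess. Groups did not overlap for 7 lower members, or 25.9% against 8.33% of all genes, and for 2 higher ones, or 7.41% against 16.1%. The targets gave the same counts under quantile normalization and cyclic loess, where 15.0% and 12.7% of all genes were below and 7.06% and 9.28% above. The 7 lower members were not all the same, since Bnip3l was among them only before rescaling and Epo only after it. Epo and Higd1a had signals under 7.92, the 95th percentile of olfactory receptor genes, on all arrays. Egln3 had the largest difference of the lower ones. Vegfa, the angiogenic growth factor gene, had log2 signals of 9.12 and 9.14 in WT and 9.55 and 9.30 in Hif1a-/-, a difference of 0.30 (SE 0.14). Hmox1, the haem oxygenase gene, was called between array numbers (1.45 higher in number 2, SE 0.19, adjusted p = 0.0127 in limma). Its difference ran from 1.22 to 1.68 with 1 array left out, and such fits cannot test the call.

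The genes most like Hif1a and Egln3 over the 4 arrays were sought among 9968 genes with a mean signal over the median. Likeness was the root mean square difference of log2 values after centring each gene on its own mean. Nearest to Hif1a were Chmp1b, Nudt4 and Dcun1d5, at 0.008, 0.011 and 0.012 log2 units, and 560 genes lay within 0.1. Nearest to Egln3 were Echdc1, B3gnt5 and Mrrf, at 0.058, 0.075 and 0.078, with 5 genes within 0.1. The Egln3 profile, with Hif1a-/- array 2 far below the rest, thus had fewer close matches than the Hif1a profile. The limit of 0.1 was absolute, and the range over the 4 arrays was 1.26 for Egln3 and 0.62 for Hif1a. These counts therefore do not compare the shapes of the profiles. With only 4 arrays such likeness is a description of these arrays.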

How the data were processed

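Whole-transcript Affymetrix arrays measured the RNA of 4 samples. Per the submitters' processing notes, the authors used Affymetrix Expression Console 1.1 and RMA, and the deposited table holds log2 signals, a scale inferred from their range. RMA corrects background and is meant to set all arrays to a common distribution, which removes a change shared by all genes. The deposited values still differed in distribution, with medians over all probe sets from 8.19 in WT array 2 to 8.35 in Hif1a-/- array 2. Their interquartile ranges ran from 2.49 in Hif1a-/- array 2 to 2.78 in WT array 2. The table held 0 columns of other samples. Of 35556 probe sets 21789 had 1 symbol, and for genes with several probe sets the one with the highest mean was used. No dim probe sets were left out. Genotypes, and array numbers, were compared by two-sided tests without covariates (R 4.3.3, limma 3.58.1, lmFit then eBayes), with Benjamini-Hochberg adjustment over 19938 genes and a threshold of 0.05. The genotype fit was first tested on simulated arrays. These were drawn independently with no split between array numbers, so that test does not cover such a split. The number of arrays limits the precision, and p-values measure only the spread between these arrays, since the labels do not say that the samples came from separate animals. The 10 genes and 15 gene lists (183 of 201 listed genes matched) were chosen with earlier results of these data known. Named beside the 10 were, in each pathway list, the genes with the largest difference per direction among those with no overlap between genotypes, any gene past the threshold, and the 3 genes most like Hif1a and Egln3. Alternatives were cyclic loess, quantile normalization, averaged probe sets, dropping the 40% of genes with the lowest signal, eBayes with trend and robust, the replicate number or genotype as a block, and each array left out. Promoters are from RefSeq (GRCm38.p6). The sources used here name no build for the array's probe sets.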

Additional observations from a re-analysis of the deposited data

How the results depend on the processing

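With 2 arrays per group, the genotype count stayed at 0 of all genes and 0 of the 10 under each alternative run. Arrays of the same number deviated together (r = 0.669 over genes, 2 pairs), but the labels do not say what the number stands for. With the replicate number as a block, 0 genes passed, and the adjusted p of the 10 genes ran from 0.980 to 0.9986. Of the alternatives with all 4 arrays, the scalings alone could move the differences of the 10 genes, each with 1 probe set. Of 20 rescaled genotype values, 13 kept their sign and 7 turned. Under quantile normalization these were Arnt2 (−0.027) and Hif1an (0.0046), and under cyclic loess Hif1a (0.012), Arnt (0.011), Arnt2 (−0.0047), Egln1 (0.0052) and Hif1an (0.020). For the array numbers 19 of 20 kept their sign, and Arnt turned under quantile normalization (−0.017). The cause was not tested. Epas1 gave no value without the dimmest 40% of genes. With 1 array left out, genotype differences ranged from −0.38 to 0.23 for Hif1a, −0.027 to 0.38 for Epas1, −0.34 to 0.061 for Hif3a, −0.093 to 0.16 for Arnt2, −0.18 to 0.24 for Vhl, −0.085 to −0.064 for Arnt, −0.20 to 0.081 for Egln1, −0.25 to −0.089 for Egln2, −0.089 to 0.086 for Hif1an and −1.16 to −0.33 for Egln3. Number differences ranged from 0.16 to 0.51 for Hif1a, 0.022 to 0.39 for Epas1, −0.44 to −0.22 for Hif3a, 0.062 to 0.21 for Arnt2, 0.31 to 0.40 for Vhl, −0.12 to −0.020 for Hif1an, −0.024 to 0.055 for Arnt, −0.15 to 0.18 for Egln1, −0.18 to 0.12 for Egln2 and −0.94 to 0.32 for Egln3. The number count ranged from 319 to 4661 over all genes and from 0 to 4 of the 10 with 1 array left out, and from 1108 to 1408 under the other alternatives.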
